A study of Homo sapiens with 6 samples.

Results

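Tubulin transcripts were measured by RNA-seq in ERRAS cells arrested in mitosis, and 10 genes were followed, 4 of alpha-tubulin (TUBA1A, TUBA1B, TUBA1C, TUBA4A), 5 of beta-tubulin (TUBB, TUBB2A, TUBB3, TUBB4B, TUBB6) and the gamma-tubulin gene TUBG1. They were chosen by name from the 63009 genes read from the table, with earlier results of these data known but by no rule on a measured value. Where a symbol had more than 1 row, as for TUBB and TUBB3, the row with the highest mean FPKM was taken. All 10 passed the filter on low values. ERRAS cells are early passage IMR90, a line of human lung fibroblasts, that stably carry oncogenic RasV12 fused to the ligand-binding part of the estrogen receptor, so that tamoxifen switches Ras on. The 3 control libraries came from uninduced cells of this line and the 3 Ras-induced libraries from cells induced for 4 days with 100 nM tamoxifen, as the labels give the dose. Control cells carried the construct too but had no tamoxifen, so tamoxifen itself and Ras activity cannot be told apart. Both groups grew in 20% serum at 3% oxygen and were then stopped in mitosis with 1 µM DME (dimethylenastron), a blocker of the spindle motor Eg5. Cells that had let go of the dish were collected, and the labels give a mitotic index over 90%. All libraries came from 1 cell line, and the study states that the experiment was repeated independently.

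Microtubules are hollow polymers of alpha- and beta-tubulin, which pair into a dimer before they are built into the wall. Gamma-tubulin sits in a ring complex at centrosomes and other nucleation sites and starts new microtubules. Humans carry several genes for alpha- and for beta-tubulin, called isotypes, whose proteins are alike along most of their length and differ most in an acidic tail at the end of the chain, where glutamates are modified and motor proteins bind. TUBB is the isotype found in nearly all cells, TUBB4B is likewise broadly expressed, TUBB2A and TUBB3 are abundant in neurons, TUBB3 is also found in some tumour and other non-neuronal cells, and TUBB6 is a divergent isotype of non-neuronal tissues. Cells that hold too much free tubulin degrade tubulin mRNAs as they are translated, a feedback in which TTC5 recognises the first residues of the new chain.

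The opening of the coding sequence is shown for 4 genes because those residues are what TTC5 reads in alpha- and beta-tubulin. Each line gives the first 24 coding bases of the reference transcript, with the first 4 codons in capitals.
TUBB: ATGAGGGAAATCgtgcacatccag
TUBB3: ATGAGGGAGATCgtgcacatccag
TUBA1B: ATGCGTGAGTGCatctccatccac
TUBG1: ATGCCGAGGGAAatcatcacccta
The opening of TUBB6 was the same as that of TUBB3 in all 24 bases, and TUBA1A and TUBA1C had the opening of TUBA1B.

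The end of the coding sequence is shown for the 5 beta-tubulin isotypes because it encodes the acidic tail by which isotypes are told apart. Each line gives the last 60 coding bases before the stop codon, with glutamate codons (GAA or GAG) in capitals.
TUBB: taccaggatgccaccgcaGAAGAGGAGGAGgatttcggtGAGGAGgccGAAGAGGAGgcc
TUBB2A: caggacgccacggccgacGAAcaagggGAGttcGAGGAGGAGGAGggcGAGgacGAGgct
TUBB3: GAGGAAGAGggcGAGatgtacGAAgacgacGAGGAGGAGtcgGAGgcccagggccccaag
TUBB4B: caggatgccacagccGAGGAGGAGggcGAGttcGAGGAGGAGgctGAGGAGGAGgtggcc
TUBB6: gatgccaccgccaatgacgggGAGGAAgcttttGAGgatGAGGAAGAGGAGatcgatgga
Of the 20 codons shown, glutamate took 9 in TUBB, 8 in TUBB2A, 9 in TUBB3, 10 in TUBB4B and 7 in TUBB6. Counted back from the stop codon without gaps, the tail of TUBB matched that of TUBB3 at 25 of 60 bases and that of TUBB6 at 27 of 60. The proteins have 444 (TUBB), 450 (TUBB3) and 446 (TUBB6) residues, so positions in these tails need not correspond. These counts can understate the likeness and are not comparable with the identities that follow, which come from alignments with gaps. Over the whole coding sequence TUBB was 81.74% identical to TUBB3 and 80.98% to TUBB6, whereas TUBA1A was 97.2% identical to TUBA1B and 95.87% to TUBA1C.

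Levels are given in FPKM, the fragments of a transcript scaled for its length and for all mapped fragments of a library, so that genes can be set side by side. Differences between groups are given on the log2(FPKM + 1) scale as Ras-induced minus control, with the standard error (SE), and a gene was called changed at an adjusted p from limma at or under 0.05. Of the 10 tubulin genes, 3 were called, TUBB3 higher and TUBB and TUBB6 lower in Ras-induced mitotic cells. Of the 13993 genes tested, 16.7% were called, 11.0% as higher and 5.67% as lower. The groups did not overlap for 6 of the 10 genes, as against 39.9% of all tested genes. The median difference of the 10 genes was -0.09, and that of all tested genes 0.10. The list's median was -0.16 after quantile normalization and -0.18 with a common upper quartile, and with a library left out it lay between -0.12 (without the third control) and -0.0005 (without the third Ras-induced library), at -0.04 without the second control. These counts describe the list, which is too short to be set against the background with any precision.

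**Figure D1:**
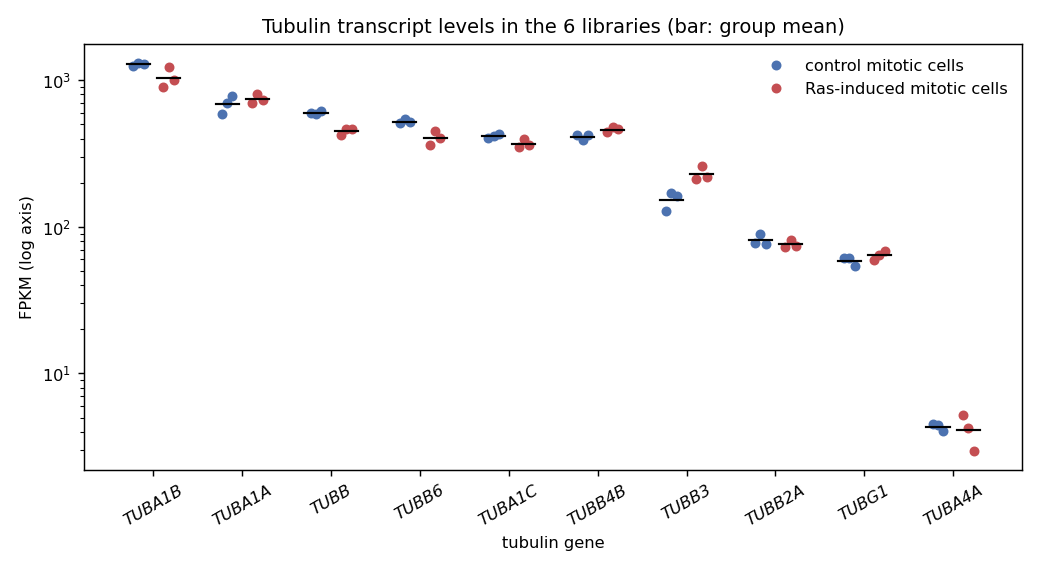
FPKM (log axis) of the 10 tubulin genes in each of the 3 control and 3 Ras-induced libraries, ordered by control mean, with a bar at each group mean. TUBB3 sits higher and TUBB and TUBB6 sit lower in all 3 Ras-induced libraries than in any control library, and TUBA4A lies far below the other genes.

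TUBB3 (ENSG00000258947, chr16:89987800-90005169 on the plus strand of GRCh37) rose. The 3 control libraries held 129, 169.5 and 161.4 FPKM, as against 210.6, 259.4 and 218.7 FPKM after Ras induction. Every Ras-induced library was above every control library, and the first control library was the lowest of the 6. The mean went from 153.3 ± 21.4 to 229.6 ± 26.2 FPKM (SD, n = 3 each), a ratio of 1.5 and a log2 difference of 0.58 (SE 0.13, adjusted p from limma 0.0309). This call was lost when any 1 of the 6 libraries was left out, with differences of 0.46 to 0.66 and adjusted p-values from limma of 0.0628 to 0.0915. With the libraries set to a common upper quartile the difference was 0.47 and the adjusted p from limma 0.0664, and without the filter on low values that p was 0.0787.

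TUBB (ENSG00000196230, chr6:30685212-30693315, plus strand) fell. Its level was 598.3, 586.5 and 620.8 FPKM in control mitotic cells and 419.9, 461.9 and 462.2 FPKM in Ras-induced mitotic cells. The groups stood well apart and each was tight, with coefficients of variation of 2.90% and 5.42%. The mean went from 601.9 ± 17.4 to 448 ± 24.3 FPKM (SD, n = 3 each), a ratio of 0.744 and a log2 difference of -0.43 (SE 0.07, adjusted p from limma 0.0141). TUBB was called under every scaling and filter tried, but not without the first control library, the second control library or the third Ras-induced library (adjusted p from limma 0.0646, 0.0608 and 0.0604), where the differences were -0.43, -0.44 and -0.45.

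TUBB6 (ENSG00000176014, chr18:12307668-12344319, plus strand) also fell. Control libraries held 509.5, 541.4 and 515.3 FPKM, and Ras-induced libraries held 362.5, 452.9 and 403.7 FPKM. The highest Ras-induced library stayed below the lowest control library. The mean went from 522.1 ± 16.97 to 406.4 ± 45.3 FPKM (SD, n = 3 each), a ratio of 0.778 and a log2 difference of -0.37 (SE 0.10, adjusted p from limma 0.0482). The value was close to the threshold. It was lost in 5 of the 6 fits that left out a library, all but the one without the second Ras-induced library (adjusted p from limma 0.038 to 0.156 over the 6), in the fit without the filter on low values (0.121) and in limma without a trend (0.0729).

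The other beta-tubulin genes did not pass the test. TUBB4B (chr9:140135739-140138159, plus strand) was at 422.5, 393.8 and 421.3 FPKM in control libraries and 440.4, 477.4 and 462.5 FPKM in Ras-induced libraries. The groups did not overlap, but the step was small, with a log2 difference of 0.16 (SE 0.07, adjusted p from limma 0.182). TUBB2A (chr6:3153731-3157778, minus strand) was at 77.7, 89.3 and 76.5 FPKM in control libraries and 72.6, 81.0 and 74.5 FPKM in Ras-induced libraries. These ranges overlapped, and the log2 difference was -0.09 (SE 0.09, adjusted p from limma 0.519).

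The 4 alpha-tubulin genes did not pass the test either. TUBA1B (chr12:49521565-49525180, minus strand), the most abundant of the 10 transcripts, was at 1245, 1303 and 1296 FPKM in control libraries and went to 894.7, 1233 and 1002 FPKM after Ras induction. The groups did not overlap, the second Ras-induced library lying just below the lowest control, and the log2 difference was -0.31 (SE 0.12, adjusted p from limma 0.138). With quantile-normalized values the difference was -0.38 and was called lower (adjusted p from limma 0.0159). It was called as well without the second Ras-induced library (-0.44, adjusted p from limma 0.0455).

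TUBA1C (chr12:49582519-49668383, plus strand) was at 405.1, 418.1 and 427.1 FPKM in control libraries and 349, 396.8 and 359.7 FPKM in Ras-induced libraries, again without overlap (log2 difference -0.18, SE 0.08, adjusted p from limma 0.160). TUBA1A (chr12:49578469-49582863, minus strand) was at 588, 695.2 and 775.1 FPKM in control libraries and 695.4, 805.5 and 732 FPKM in Ras-induced libraries. Its groups overlapped (log2 difference 0.12, SE 0.12, adjusted p from limma 0.506), and the control libraries alone spread by a coefficient of variation of 13.7%. TUBA4A (chr2:220114432-220142624, minus strand) was scarce, with means of 4.34 ± 0.242 and 4.13 ± 1.11 FPKM (SD, n = 3 each), and did not pass the test (log2 difference -0.08, SE 0.18, adjusted p from limma 0.783).

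The gamma-tubulin gene TUBG1 (chr17:40761659-40767256, plus strand) was at 61.3, 61.1 and 53.9 FPKM in control libraries and 59.2, 64.7 and 68.2 FPKM in Ras-induced libraries. The groups overlapped, and the log2 difference was 0.12 (SE 0.09, adjusted p from limma 0.393).

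In FPKM by library, the order of the levels in control mitotic cells was TUBA1B, TUBA1A, TUBB, TUBB6, TUBA1C, TUBB4B, TUBB3, TUBB2A, TUBG1 and TUBA4A. Neighbours in that order had separate ranges apart from TUBA1A with TUBB and TUBA1C with TUBB4B. In Ras-induced mitotic cells the order was TUBA1B, TUBA1A, TUBB4B, TUBB, TUBB6, TUBA1C, TUBB3, TUBB2A, TUBG1 and TUBA4A. There the ranges of TUBB4B, TUBB, TUBB6 and TUBA1C each overlapped that of the next, although TUBA1C lay below TUBB and TUBB4B in all 3 libraries of each. TUBB thus exceeded TUBB4B in every control library, while in each of the 3 Ras-induced libraries TUBB4B was the higher by a small margin (440.4 against 419.9, 477.4 against 461.9 and 462.5 against 462.2 FPKM).

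The plot of the differences under 3 scalings shows how far the signs depend on how libraries are made comparable. The median difference of all tested genes was 0.10 with the FPKM as deposited, 0.01 after quantile normalization and 0.00 with a common upper quartile. Each of the 10 tubulin differences was lower under both rescalings than as deposited, and no member changed sign. After quantile normalization and with a common upper quartile, TUBA1A went from 0.12 to 0.02 and 0.01, and TUBG1 from 0.12 to 0.03 and 0.01. TUBB4B went from 0.16 to 0.14 and 0.05, and TUBB3 from 0.58 to 0.53 and 0.47. Among all genes the calls were 1543 higher and 793 lower with the FPKM as deposited, 1044 and 1109 after quantile normalization (15.4% of genes called) and 921 and 1101 with a common upper quartile (14.5% called). Of the tubulins, 4 were called after quantile normalization, TUBB3 higher and TUBB, TUBB6 and TUBA1B lower, and 2 with a common upper quartile, TUBB and TUBB6 lower.

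**Figure D2:**
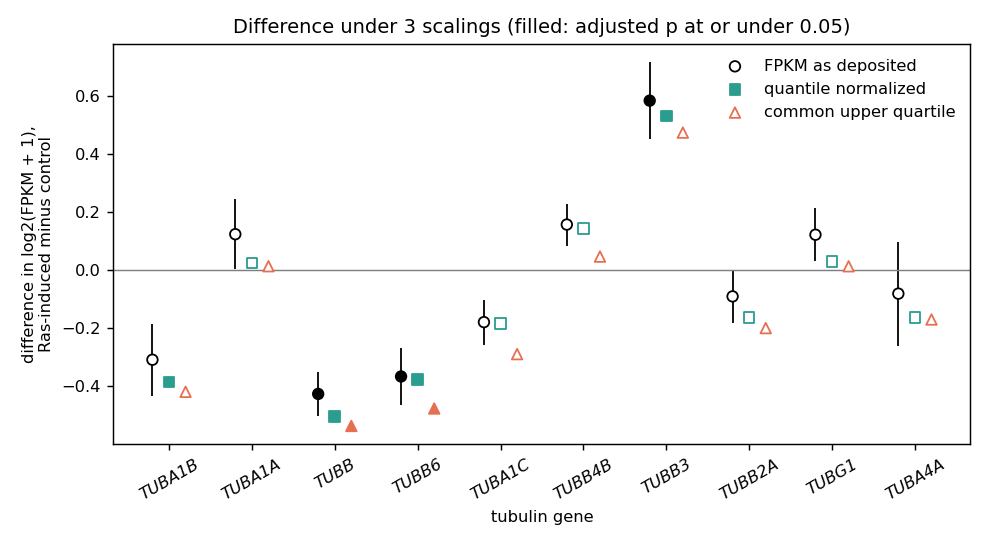
Difference in log2(FPKM + 1), Ras-induced minus control, for each tubulin gene with the FPKM as deposited (circles, with bars of 1 SE), after quantile normalization (squares) and with a common upper quartile (triangles); filled symbols have an adjusted p from limma at or under 0.05. TUBB and TUBB6 are filled under all 3, TUBB3 under 2 of the 3 and TUBA1B after quantile normalization alone.

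A share within a class does not change when a library is multiplied by 1 factor, as for a common upper quartile, though it can under quantile normalization, for which shares were not computed. Of the summed FPKM of the 5 beta-tubulin genes, TUBB took 34.5%, 32.9% and 34.6% in the control libraries and 27.9%, 26.7% and 28.5% in the Ras-induced libraries. The share of TUBB3 was 7.43%, 9.52% and 8.99% in the control libraries and 13.98%, 14.97% and 13.49% in the Ras-induced libraries. The groups did not overlap for either share, nor for those of TUBB4B, which went from a mean of 23.3% ± 1.11 to 28.4% ± 0.849, and of TUBB6, which went from 29.5% ± 0.862 to 25.0% ± 1.04 (SD, n = 3 each). TUBB2A kept 4.58% ± 0.389 and 4.70% ± 0.113, with overlap (exact permutation p = 0.6). For the other 4 shares the two-sided exact permutation p was 0.1, the smallest that 3 libraries against 3 can give, and 0.171 after adjustment over the 12 class measures tested, so none could pass 0.05.

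**Figure D3:**
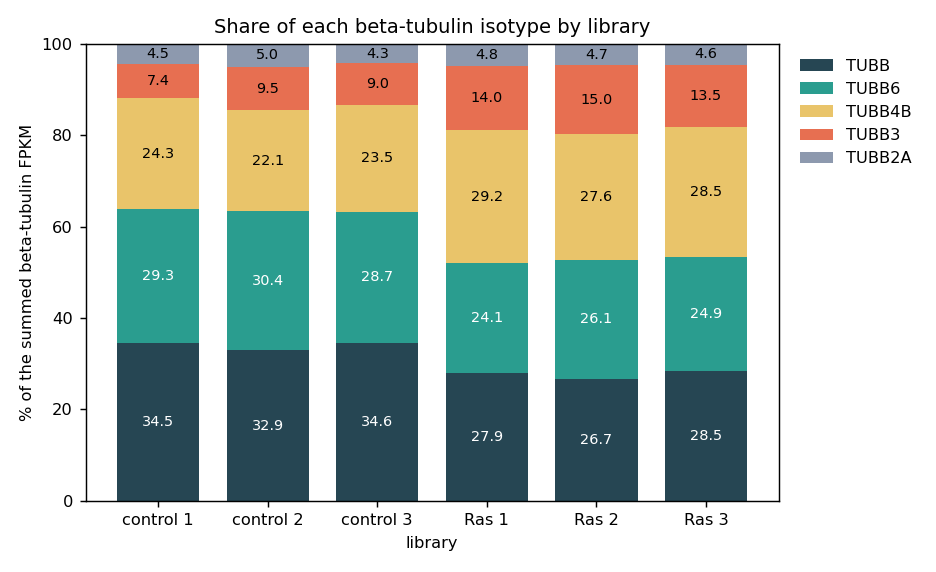
Share of each of the 5 beta-tubulin genes in their summed FPKM (stacked bars, %, which add up to 100) in the 3 control and 3 Ras-induced libraries. The TUBB3 and TUBB4B segments are wider and the TUBB and TUBB6 segments narrower in every Ras-induced library than in any control library.

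The ratio of TUBB3 to TUBB was 0.255 ± 0.0369 in control libraries and 0.512 ± 0.0452 in Ras-induced libraries, and that of TUBB4B to TUBB was 0.685 ± 0.0183 and 1.03 ± 0.0245 (SD, n = 3 each). The ratio of TUBB6 to TUBB overlapped between the groups, at 0.868 ± 0.0487 and 0.906 ± 0.0649. These pairs were picked after the values were seen and carry no test.

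Among the alpha-tubulin genes, TUBA1B held 55.5%, 53.8% and 51.8% of the summed FPKM in control libraries and 46.02%, 50.55% and 47.79% in Ras-induced libraries. The share of TUBA1A was 26.2%, 28.7% and 31.0% in control libraries and 35.8%, 33.0% and 34.9% in Ras-induced libraries. The groups did not overlap for either (exact permutation p = 0.1 each, 0.171 adjusted over the 12 measures), while the shares of TUBA1C (17.5% and 17.1%, exact permutation p = 0.5) and TUBA4A (0.183% and 0.194%, exact permutation p = 0.9) overlapped. Shares among TUBA1A, TUBA1B and TUBA1C depend on how reads were divided between near-identical genes.

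The class sums were on average lower in Ras-induced cells, and the libraries of the 2 groups overlapped for alpha-tubulin but not for beta-tubulin. Summed alpha-tubulin was 2243, 2420 and 2502 FPKM in control libraries and 1944, 2440 and 2097 FPKM in Ras-induced libraries, with overlap (exact permutation p = 0.3). Summed beta-tubulin was 1737, 1780 and 1795 FPKM in control libraries and 1506, 1733 and 1622 FPKM in Ras-induced libraries, just without overlap (exact permutation p = 0.1, the smallest this design can give, 0.171 adjusted over the 12 measures). By the library values the ratio of alpha to beta was 1.35 ± 0.0521 in control and 1.33 ± 0.0670 in Ras-induced libraries (SD, n = 3 each; exact permutation p = 0.9). The size of the fall in the sums depended on the scaling and on single libraries. In alpha-tubulin it was -228.1 FPKM as deposited, -351.9 after quantile normalization and -406.1 with a common upper quartile, and in beta-tubulin -150.8, -204.5 and -282.2. Without the first Ras-induced library the differences were -120.1 (alpha) and -93.76 (beta), and without the second -367.7 and -207.1, with exact permutation p-values of 0.1 or more in each of these cases.

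Reads from one tubulin gene can match another, and how such reads were divided is not given in the sources used here. The reference transcript of each gene was therefore cut into all its 75-base windows, and each window was looked for in the transcripts of every other gene on either strand. TUBB6 shared none of its windows, TUBB4B 8.999% and TUBG1 20.4%, the latter with its paralog TUBG2. TUBB shared 24.1%, mostly with the antisense transcript XXbac-BPG252P9.9 (19.1% of the windows) and the pseudogene TUBBP1 (8.73%). The library kit did not mark strand, so reads from the stretch that TUBB shares with that antisense gene cannot be told apart. The antisense gene stood at 379.6 ± 15.9 and 280.5 ± 16.5 FPKM (log2 difference -0.44, adjusted p from limma 0.0144) and TUBBP1 at 16.9 ± 1.26 and 11.4 ± 0.513 FPKM (log2 difference -0.53, adjusted p from limma 0.0133), both lower with TUBB.

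TUBB3 shared 92.6% of its windows with a gene on the same strand that runs through it, ENSG00000198211. That gene also bears the symbol TUBB3 in the table and was listed at a mean of 0.883 FPKM, and summing both rows left the TUBB3 difference at 0.58 (adjusted p from limma 0.0311). With any other member TUBB3 shared 6.80% of its windows. TUBB2A shared 59.5%, of which most were with TUBB2B (56.0%), a near copy listed at 30.3 and 28.2 FPKM in control and Ras-induced cells. The table lists the symbol TUBB in 8 rows, of which 7 were at 0 in every library.

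Of the alpha-tubulin genes, TUBA1B shared 42.2% of its windows with another member, TUBA1A 33.0%, TUBA1C 18.1% and TUBA4A none. With any other gene the shares were 77.2% for TUBA1B, 33.0% for TUBA1A, 36.5% for TUBA1C and 31.2% for TUBA4A. Genes on the opposite strand, whose reads this kit cannot separate, took much of this for TUBA1B, TUBA1C and TUBA4A. They were TUBA1B-AS1 (66.6% of TUBA1B), ENSG00000258232 (20.5% of TUBA1C) and STK16 (28.05% of TUBA4A). STK16, at a mean of 19.8 FPKM, stood above TUBA4A. The deposited tables also gave different levels for some of the 10 genes. The group values in the authors' comparison table put TUBA1C at 55.3 FPKM in control and 50.8 FPKM in Ras-induced cells, and the mean over libraries was 7.53 and 7.25 times as high. For TUBA1A, TUBA1B and TUBB2A the mean over libraries was 1.55 to 1.91 times as high, and for the other 6 genes 0.992 to 1.2 times. Over 13546 genes the median of this ratio in control cells was 0.985, and 3.42% of genes had a ratio of at least 5. By the authors' group values TUBA1C made 4.22% of alpha-tubulin in control cells, as against 17.5% by the library values, so that its place in the order of levels depends on the table used. By the group values in control cells TUBA1A (423.9 FPKM) also lay below TUBB and TUBB6 (554.3 and 512 FPKM), and TUBB2A (45.8 FPKM) below TUBG1 (53.1 FPKM), unlike their order by library. The group values summed to 1311 and 1194 FPKM of alpha-tubulin in control and Ras-induced cells and to 1671 and 1451 FPKM of beta-tubulin. Their ratio of alpha to beta was 0.785 and 0.823, below 1 where the library values gave a ratio above 1, and its small shift between the groups had the opposite sign. The shares of TUBB (33.2% and 26.9%) and TUBB3 (8.75% and 14.3%) by the group values were close to those by library.

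**Figure D4:**
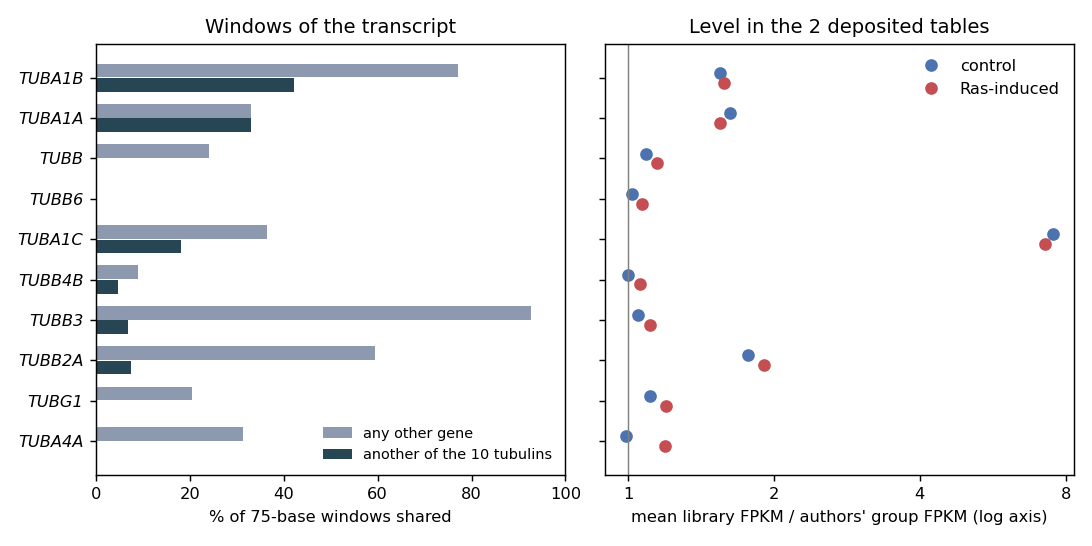
Left, percentage of the 75-base windows of each reference transcript that also occur in any other gene (light bars) or in another of the 10 tubulins (dark bars). Right, mean FPKM over the libraries divided by the authors' group FPKM (log axis) in control and Ras-induced cells, where TUBA1C stands apart at over 7 times and TUBB, TUBB3, TUBB4B and TUBB6 lie near 1.

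Promoters are shown for the 3 genes that were called, so that the pair that fell can be set beside the one that rose. Each is the window of the main transcript, 250 bases before and 50 after the annotated start in RefSeq (GRCh38.p14), read along the gene's strand, with matches to the motifs searched in capitals.
TUBB, chr6:30720102-30720401: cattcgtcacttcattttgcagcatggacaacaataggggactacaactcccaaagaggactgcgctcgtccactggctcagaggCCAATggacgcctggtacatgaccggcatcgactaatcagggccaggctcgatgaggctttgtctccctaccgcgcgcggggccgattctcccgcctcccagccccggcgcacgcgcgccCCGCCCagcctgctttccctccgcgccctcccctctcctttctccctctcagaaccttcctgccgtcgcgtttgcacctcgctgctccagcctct
TUBB6, chr18:12307991-12308290: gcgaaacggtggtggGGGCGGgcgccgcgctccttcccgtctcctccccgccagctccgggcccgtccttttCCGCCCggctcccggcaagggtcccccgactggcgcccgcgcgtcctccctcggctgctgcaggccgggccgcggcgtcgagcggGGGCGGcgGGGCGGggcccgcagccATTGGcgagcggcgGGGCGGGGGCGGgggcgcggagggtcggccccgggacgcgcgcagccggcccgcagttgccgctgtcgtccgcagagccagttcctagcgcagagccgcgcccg
TUBB3, chr16:89923092-89923391: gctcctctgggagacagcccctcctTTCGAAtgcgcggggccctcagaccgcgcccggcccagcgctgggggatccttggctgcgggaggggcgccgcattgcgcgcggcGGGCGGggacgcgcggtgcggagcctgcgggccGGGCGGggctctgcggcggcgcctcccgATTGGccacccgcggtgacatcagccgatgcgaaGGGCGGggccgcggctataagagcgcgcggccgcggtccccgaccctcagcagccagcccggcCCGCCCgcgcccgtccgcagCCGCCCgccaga
Motifs were searched on both strands. They were the CCAAT box, the CHR element of cell-cycle genes, which is TTTGAA or in its other form TTCGAA, and the TATA box, searched as TATAAA. The GC box was searched as GGGCGG. The AP-1 site was taken as TGANTCA and the ETS site, bound by a family of Ras-responsive factors, as CCGGAAG. Different motifs did not overlap in these windows. Each of the 3 promoters held 1 CCAAT, as did 34.6% of all 35116 promoters of this length at least once. The GC box, found in 45.0% of all promoters, occurred 1 time in TUBB, 6 times in TUBB6 and 5 times in TUBB3. TUBB3 held 1 CHR match, found in 16.4% of all promoters, and TUBB and TUBB6 held none. No match to TATAAA or to the AP-1 or ETS letters was in these 3 windows, as against 11.5%, 7.71% and 10.3% of all promoters. The TUBB3 window holds tataag, which differs from the TATA letters searched in its last base. RefSeq gives each of these genes another promoter window, not shown, of which that of TUBB3 holds 1 AP-1 match, that of TUBB 6 GC boxes and that of TUBB6 no match to any motif. Matching letters do not show that a factor binds.

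Most of the remaining tubulin genes were hardly expressed. Of 13 further tubulin genes, 9 lay below 1 FPKM in every library, and the 4 tested, TUBB2B, TUBG2, TUBD1 and TUBE1, did not pass the test in limma (1 at an unadjusted p under 0.05, TUBG2, median log2 difference 0.16). After either rescaling the median was 0.06 and none was at that unadjusted p. The median ran from 0.10 without the second Ras-induced library to 0.19 without the third. In the fits that left out a library, 1 gene was at that p only without the third control or the first Ras-induced library. TUBB2B had the highest level of them (log2 difference -0.10, SE 0.10, adjusted p from limma 0.510).

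Newly made tubulin is handed by prefoldin to the chaperonin CCT, in which it folds. Of the 14 subunits of these complexes, 5 rose and none fell, beside 11.0% of all tested genes called higher, and the median log2 difference was 0.32 beside 0.10 for all genes. PFDN2, a prefoldin subunit, went from 101.3 ± 12.5 to 173.1 ± 7.41 FPKM (SD, n = 3 each; log2 difference 0.77, SE 0.11, adjusted p from limma 0.00715). PFDN6 rose by 0.47 (SE 0.07, adjusted p from limma 0.00868), PFDN4 and the CCT subunit CCT4 by 0.42 each (adjusted p from limma 0.0354 and 0.0276), and CCT6A by 0.28 (0.0482). CCT6A was not called with a pseudocount of 0.1, with another filter or none, after quantile normalization, without a trend or with a replicate block. CCT5 stood at 365.8 and 363.1 FPKM (log2 difference -0.01), and PFDN4, tied with CCT4 for the third place, CCT5 and CCT6A were named after their values were seen. With a common upper quartile only PFDN2 and PFDN6 were called, and the median was 0.21 beside 0.00 for all genes. Leaving out the first Ras-induced library gave 6 calls, the third control 3, and each of the other 4 libraries 2, which were PFDN2 and PFDN6.

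After folding, cofactors TBCA to TBCE join alpha- to beta-tubulin. Of the 8 genes for cofactors and for autoregulation, 3 rose and 1 fell, beside 16.7% of all tested genes called, and the median log2 difference was 0.17 beside 0.10 for all genes. TBCC, which releases the finished dimer, rose from 9.40 ± 0.852 to 15.9 ± 1.53 FPKM (log2 difference 0.70, SE 0.11, adjusted p from limma 0.00990). TBCA, which holds beta-tubulin, rose by 0.34 (SE 0.09, adjusted p from limma 0.0469), and TBCD, which also takes up beta-tubulin, fell by 0.37 (SE 0.07, adjusted p from limma 0.0201). TTC5, the factor that reads the opening residues shown above, was at 4.63, 4.51 and 6.42 FPKM in control libraries and 8.01, 9.02 and 8.94 FPKM in Ras-induced libraries. Its groups did not overlap (log2 difference 0.65, SE 0.14, adjusted p from limma 0.0276), but it was not called after either rescaling of the libraries or without the filter. Among the fits that left out a library, TTC5 was called only without the third control. TBCA was not called with a common upper quartile, without the filter, without a trend, with a replicate block or with any library left out. With a library left out the list had 0 calls without the second control (4 of 8 genes at an unadjusted p from limma under 0.05), 1 without the first or the third Ras-induced library, 2 without the first control or the second Ras-induced library, and 3 without the third control.

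**Figure D5:**
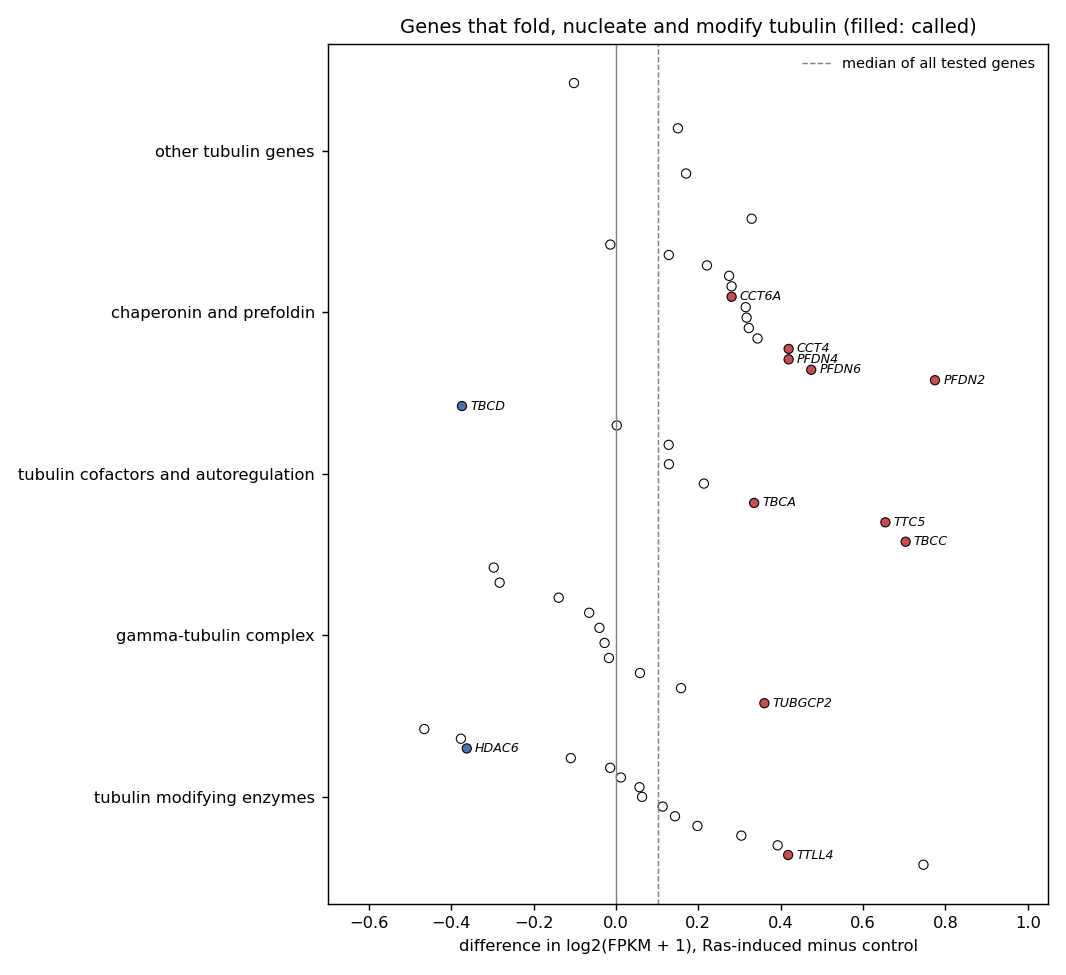
Difference in log2(FPKM + 1), Ras-induced minus control, of every tested gene in 5 lists of genes that work with tubulin, 1 point a gene; filled points have an adjusted p from limma at or under 0.05 (red higher, blue lower) and the dashed line is the median of all tested genes, 0.10. The 5 filled points of the chaperonin and prefoldin list are all to the right, while the gamma-tubulin complex and the modifying enzymes scatter about 0.

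In the gamma-tubulin ring complex and its partners 1 of 10 genes was called, TUBGCP2, a core subunit (log2 difference 0.36, SE 0.08, adjusted p from limma 0.0305), and after either rescaling none was (3 at an unadjusted p from limma under 0.05). Its call was kept only without the third control among the fits that left out a library. The list's median log2 difference was -0.03 as deposited, -0.13 after quantile normalization and -0.14 with a common upper quartile, and ran from -0.09 without the third control to -0.02 without the second. Of 15 tested enzymes that modify tubulin, TTLL4, a glutamate ligase, rose by 0.42 (SE 0.10, adjusted p from limma 0.0372), and HDAC6, which removes acetyl groups from alpha-tubulin, fell by 0.36 (SE 0.07, adjusted p from limma 0.0220). The median of the enzymes was 0.06 with the FPKM as deposited and turned to -0.03 after either rescaling, which also ended the TTLL4 call and added a lower call for AGTPBP1, a glutamate-removing enzyme. That median ran from 0.04 without the third control to 0.20 without the first. With a library left out, TTLL4 was not called in any of the 6 fits and HDAC6 only without the third control. Over the 5 lists 12 of 51 genes were called, 10 higher and 2 lower, beside 16.7% of all tested genes. The split was 7 higher and 3 lower after quantile normalization and 3 and 3 with a common upper quartile. Leaving out control library 1, 2 or 3 left 4, 2 or 8 calls, and leaving out Ras-induced library 1, 2 or 3 left 7, 4 or 3.

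The genes whose profiles over the 6 libraries lay closest to each called tubulin were found by distance, among 7866 genes other than tubulins that averaged 10 FPKM or more. For TUBB they were KIF4A, a chromosome-bound kinesin (76.4 to 56.5 FPKM), and SPAG5, a spindle protein also called astrin (131.2 to 99.4 FPKM), at distances of 0.0540 and 0.0869 in log2 units. For TUBB6 they were MGST1, a microsomal glutathione transferase, and NEK3, a kinase of the NIMA family (0.0961 and 0.104). For TUBB3 they were DPH1, an enzyme of diphthamide synthesis, and NDUFAF4, a complex I assembly factor (0.156 and 0.163). Nothing about shared control follows from a likeness over 6 libraries.

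Markers of cell identity and state were read in the same libraries. Of 12 fibroblast genes none lay below 1 FPKM throughout, and THY1, COL1A2, LUM and DCN were lower in Ras-induced cells. The other 8 did not pass the test, among them VIM (2149 and 2248 FPKM), FN1 (945.5 and 947 FPKM) COL1A1 (1345 and 550 FPKM, log2 difference -1.43, adjusted p from limma 0.0501), COL3A1 (-1.25, 0.0553), COL6A3 (-0.48, 0.0781) and FAP, which stood at 39.0 and 66.3 FPKM (log2 difference 0.83, adjusted p from limma 0.0869) and was called higher without the third control. The median log2 difference of the 12 was -0.83, COL1A1 was called lower in 6 of the alternatives, and the COL1A2 call was lost without the second control or the first Ras-induced library. The summed level of the list ranged from 6334 to 7451 FPKM in control and from 4505 to 6057 FPKM in Ras-induced libraries. Of 12 mitotic genes 6 were lower (CCNB2, PLK1, BUB1, TPX2, CENPF and TOP2A) and none higher, beside 5.67% of all tested genes called lower, with a summed level of 2099 to 2160 FPKM in control and 1688 to 1868 FPKM in Ras-induced libraries. The count was 0 without the first control, the second control or the third Ras-induced library (6 at an unadjusted p from limma under 0.05 in each), 1 without the first Ras-induced library, 3 without the second and 4 without the third control, 2 without the filter and 3 in limma without a trend. The list summed lower together with TUBB and TUBB6, and its part in those results was not tested. Genes of both lists were named after their values were seen. Beside the higher TUBB3, 11 of 12 neuronal markers lay below 1 FPKM in every library, DCX and STMN2 at 0. The remaining one, SYT1, was higher (4.73 to 8.97 FPKM, adjusted p from limma 0.0144, a call lost without the first control, the second control, the first Ras-induced or the third Ras-induced library), and the list's sum ranged from 5.18 to 5.88 FPKM in control and from 8.25 to 10.9 FPKM in Ras-induced libraries. Without the filter on low values 10 neuronal markers were tested, and GAP43, near the floor (0.0280 to 0.329 FPKM), was also called higher. In that fit 2 others were lower at an unadjusted p from limma under 0.05.

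Of the endothelial list 5 of 6 genes lay below 1 FPKM in every library, PECAM1 at 0, with sums of 14.7 to 16.6 and 4.85 to 5.41 FPKM that came mostly from TEK. TEK, the only gene of that list tested, was called lower (15.3 to 4.93 FPKM, log2 difference -1.45, adjusted p from limma 0.00126). The leukocyte list had 5 of 6 below 1 FPKM, CD3E and ITGAM at 0, with sums of 25.3 to 30.9 and 30.5 to 35.9 FPKM. The epithelial list (6 genes tested in limma, none called, 1 at an unadjusted p under 0.05) summed to 86.6 to 96.8 and 93.1 to 99.5 FPKM. Of 4 tested smooth muscle genes CNN1 and ACTG2 were lower, beside 5.67% of all tested genes called lower. The smooth muscle list summed to 450.1 to 510.0 and 236.6 to 314.9 FPKM. In these bulk samples, fewer cells of a type and less RNA per cell cannot be told apart. HRAS, the gene in the construct, was at 1164 ± 20.3 and 1586 ± 226.5 FPKM (SD, n = 3 each; log2 difference 0.44, adjusted p from limma 0.0431), without a split between the native gene and the construct. Relative depth, read from the steps between low values and set to 1 in the first control library, was 0.951 and 1.17 in the other controls and 0.850 to 1.13 in the Ras-induced libraries.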

How the data were processed

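RNA-seq was done on 6 libraries, 3 a group, made with a poly(A) kit that does not mark strand. Per the labels and methods, the authors trimmed reads with Trim Galore 0.3.0, aligned them with Tophat2 (hg19, splice junctions from Ensembl build 73) and deposited FPKM values from Cufflinks per gene and library, with no scaling between libraries stated. The authors also deposited a Cuffdiff table, of which the group FPKM alone were used; its fold, test score, p-value and q-value columns were not. The methods give the inducer as 4-hydroxytamoxifen by mass and the labels as tamoxifen by molarity. The table's columns name the group and a number but no sample, so libraries stood as replicates of their group. Of 63129 genes listed, 120 with more than 6 values in their row were left out, as were 18 columns without a name and 1 repeated header line. Read counts were not used here, so absolute depth is unknown and no counting interval is given.

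The 13993 genes that averaged 1 FPKM or more entered the test, on log2(FPKM + 1), which understates changes of low genes, with limma 3.58.1 in R 4.3.3 (lmFit, eBayes with a trend), two-sided and Benjamini-Hochberg adjusted over all of them. The procedure was tested on simulated data. Shares and sums were compared by exact permutation over libraries. The members and the gene lists were chosen with earlier results of these data known. Named by rule beside the members were, from each list of genes that work with tubulin, up to 3 rises and 3 falls among called genes or else the most abundant gene, the 2 nearest profiles to each called member, and HRAS; called genes of the marker lists were named after their values were seen. Same-numbered libraries did not deviate together (correlations -0.003, 0.043 and 0.048), so the fit has no block. Gene positions and transcripts are from GENCODE 44 on GRCh37, the build of hg19, and promoters from RefSeq on GRCh38.p14, which matched all 10 members. SVBP is the newer symbol of CCDC23 and was counted once. Alternatives were a pseudocount of 0.1, no filter or one at 5 FPKM, quantile normalization, a common upper quartile, no trend, a replicate block, each library left out, rows of a symbol summed, and calls of at least 0.5 in log2 difference. Python 3.11.15, pandas 2.3.3, numpy 2.4.6, scipy 1.17.1, Biopython 1.88 and matplotlib 3.10.9 were used.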

Additional observations from a re-analysis of the deposited data

How the results depend on the processing

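The 3 tubulin calls became 1 without the filter on low values, 1 with a log2 difference of at least 0.5 and 0 to 3 with a library left out (3 to 5 at an unadjusted p from limma under 0.05), over which 860 to 1872 genes were called in all as against 2336. The 12 calls in the companion lists became 6 without the filter, 6 with a common upper quartile and 2 to 8 with a library left out. TUBB3 was 0.5836 (adjusted p from limma 0.0787) without the filter and 0.4736 (0.0664) with a common upper quartile. TUBB6 was -0.3661 without the filter (0.121) and without a trend (0.0729). TUBA1B was -0.3850 (0.0159) after quantile normalization. Over the 14 alternatives the adjusted p from limma ran from 0.00828 to 0.0646 for TUBB, 0.0188 to 0.0915 for TUBB3 and 0.00712 to 0.156 for TUBB6. The filter and the number of libraries change how many genes and values a fit holds; the cause of the other shifts was not tested.

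With a library left out, the log2 differences ranged from 0.0173 to 0.2163 for TUBA1A, -0.4354 to -0.2043 for TUBA1B, -0.2332 to -0.141 for TUBA1C, -0.2282 to 0.0924 for TUBA4A, -0.4493 to -0.3804 for TUBB, -0.1365 to -0.0206 for TUBB2A, 0.4648 to 0.6604 for TUBB3, 0.1239 to 0.1881 for TUBB4B, -0.447 to -0.2868 for TUBB6 and 0.0616 to 0.1762 for TUBG1. The share differences (percentage points) ranged from -0.04607 to 0.3316 for TUBB2A, -0.76 to 0.08308 for TUBA1C and -0.02494 to 0.0377 for TUBA4A, and the difference in the ratio of alpha to beta from -0.056 to 0.005369; these and TUBA4A changed sign with a library left out. The other shares and the class sums kept their sign, the sums with differences of -367.7 to -120.1 FPKM (alpha) and -207.1 to -93.76 FPKM (beta).

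The fit with a replicate block called the same number of tubulins, 3 (TUBB 0.0295, TUBB3 0.0188 and TUBB6 0.0464 as adjusted p from limma), and 2310 genes in all, but the numbers do not pair the libraries; the smallest exact permutation p within pairs is 0.25. Absolute depth is unknown, so what it limits could not be worked out.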
